A study of Mus musculus with 56 samples.

Results

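The genes described here are 10 enzymes of phosphatidylcholine and phosphatidylethanolamine synthesis in mouse visceral adipose tissue (VAT), Chka, Chkb, Pcyt1a, Pcyt2, Etnk1, Cds2, Ptdss1, Ptdss2, Pemt and Lpcat3. They were chosen by name, with earlier results of these data known. The Ensembl identifier of each matched 1 row of a table of 25939 genes. The study asked how a shift of feeding to the day resets daily gene expression in several tissues, of which VAT was analysed here. All libraries came from female C57BL/6J mice, 9 weeks old, under a light-dark cycle with 12 h of light. For the last 7 days the mice had food either by day only (daytime-restricted feeding, DRF) or by night only (nighttime-restricted feeding, NRF, the reference). Tissue was taken at 7 time points, every 4 h from zeitgeber time 0 (ZT0, lights on) to ZT24, with 4 libraries per regimen and time point and 28 per regimen. ZT0 and ZT24 are the same hour of the day in separate libraries. No gene was deleted and no agent was given, and both regimens restrict the hours of feeding, so no group fed freely. The labels give a replicate number but not the animal of each library, so p-values measure the spread between these libraries.

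Phosphatidylcholine and phosphatidylethanolamine are the main phospholipids of cell membranes and of the monolayer around a lipid droplet. In the Kennedy pathway, choline or ethanolamine is phosphorylated, activated with CTP to a CDP-alcohol, and joined to diacylglycerol, the same precursor that is acylated to triglyceride. Phosphatidylserine synthases swap the head group of an existing phospholipid for serine, Pemt methylates phosphatidylethanolamine to phosphatidylcholine, and Lpcat3 puts a polyunsaturated acyl chain back onto a lysophospholipid. Cds2 serves a separate branch, the conversion of phosphatidic acid to CDP-diacylglycerol for phosphatidylinositol and mitochondrial lipids.

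Reads recovered from the deposited values numbered 31146608 to 41247353 per library over the 56 libraries (median 35541809). Levels below are CPM, recovered reads scaled to a common library size. Differences are on the log2(CPM + 1) scale, which understates changes of genes near 1 CPM, and a fold is the antilog of such a difference. A call means an adjusted p under 0.05 over 25938 genes, by limma unless a rhythm test is named. The mean level of a gene is the middle line of its fitted 24-h cosine in a regimen. It can differ from the plain average of the libraries, because ZT0 and ZT24 sample the same hour. The tissue label was checked against markers: the summed level of 7 adipocyte genes was 24642 to 43846 CPM under NRF and 11748 to 37509 under DRF. A pair of DRF libraries stood apart, replicate 1 at ZT8 and replicate 4 at ZT0, with 668 and 5335 CPM of 8 measured epithelial genes of uterus and oviduct, against 28 to 147 in the other DRF libraries and 40.5 to 122 under NRF. Adipocyte genes summed to 11748 and 16848 CPM in these 2 libraries. Mean level was called for 21.7% of all genes. Of the marker lists, 5 of 5 blood genes were called higher under DRF. Lower under DRF were 4 of 5 macrophage genes, 3 of 5 mesothelial genes and 1 of 6 lymph node genes. Of 7 adipocyte genes 3 were called, 1 of them higher, and 1 of 4 brown adipocyte genes was higher. Lymph node genes summed to at most 19.1 CPM in any library. Fed against fasted, 23% of all genes were called under NRF and 18.2% under DRF. Adipocyte genes gave 2 of 7 under NRF and 1 of 7 under DRF. Macrophage genes (of 5) and brown adipocyte genes (of 4) gave 1 each under both regimens, and lymph node genes 1 of 6 under NRF. The epithelial, liver and skeletal muscle lists gave 0 calls in these tests, and blood and mesothelial genes 0 fed against fasted. Skeletal muscle genes summed to up to 483 CPM under NRF and 366 under DRF, against medians of 35.7 and 55.1. The part of these shifts in the results below was not tested. In whole tissue, fewer cells of a type and less RNA per cell cannot be told apart.

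Per kilobase of exon, the enzyme that remodels phosphatidylcholine was the most abundant of the 10 and the choline kinases were the least. Lpcat3 averaged 45.6 CPM per kilobase of exon (RPKM) over all libraries, above 96.1% of the genes in the table. Pcyt2 averaged 22.9 RPKM, Cds2 15.7, Ptdss1 12.1, Pcyt1a 9.53, Etnk1 8.6, Ptdss2 7.94 and Pemt 5.75. Chka averaged 0.915 RPKM and Chkb 0.131. From Lpcat3 down to Pemt, the ranges of each pair of neighbours in this order overlapped over all libraries, for example 6.7 to 12.3 RPKM for Pcyt1a, 5.9 to 11.6 for Etnk1 and 5.38 to 10.5 for Ptdss2. Within DRF, Lpcat3 (35.5 to 69) lay above every library of Pcyt2 (13.6 to 34.2), while within NRF the 2 genes overlapped. Chka (0.537 to 1.82) lay below every library of Pemt (3.78 to 8.22) and above every library of Chkb (0.0453 to 0.274).

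Chka, Pcyt1a and Etnk1 moved together over the day, Cds2 moved against them and Lpcat3 shifted most in mean level, so their promoters are shown. Each run is the 250 bases before the first transcription start of the gene in RefSeq (GRCm38.p6), 5′ to 3′ on the gene's strand, with capitals for motif matches. The motifs searched on both strands were CACGTG (E-box), CCAAT (NF-Y box), TTATGTAA (D-box), GTAAACA (forkhead), TCACCCCAC (sterol element) and the DR4 repeat of nuclear receptors (AGGTCA, 4 bases of any kind, AGGTCA). The window of Chka is chr19:3851523-3851772 (+ strand), that of Pcyt1a chr16:32430671-32430920 (+), that of Etnk1 chr6:143166980-143167229 (+), that of Cds2 chr2:132262898-132263147 (+) and that of Lpcat3 chr6:124662854-124663103 (+).
Chka: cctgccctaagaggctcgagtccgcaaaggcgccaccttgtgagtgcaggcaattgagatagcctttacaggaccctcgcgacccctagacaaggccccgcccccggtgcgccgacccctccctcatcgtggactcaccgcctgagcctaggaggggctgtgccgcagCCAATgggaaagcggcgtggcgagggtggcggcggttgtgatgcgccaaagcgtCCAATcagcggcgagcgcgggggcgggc
Pcyt1a: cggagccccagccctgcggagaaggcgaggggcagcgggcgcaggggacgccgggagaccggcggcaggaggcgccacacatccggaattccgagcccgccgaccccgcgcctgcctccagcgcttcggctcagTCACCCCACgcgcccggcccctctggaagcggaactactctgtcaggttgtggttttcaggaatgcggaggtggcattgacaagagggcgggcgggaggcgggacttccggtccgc
Etnk1: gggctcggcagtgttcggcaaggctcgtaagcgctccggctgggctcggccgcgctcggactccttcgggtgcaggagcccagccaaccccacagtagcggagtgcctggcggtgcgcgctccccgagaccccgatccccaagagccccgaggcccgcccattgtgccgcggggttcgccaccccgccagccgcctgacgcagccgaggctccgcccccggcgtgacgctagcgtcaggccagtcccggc
Cds2: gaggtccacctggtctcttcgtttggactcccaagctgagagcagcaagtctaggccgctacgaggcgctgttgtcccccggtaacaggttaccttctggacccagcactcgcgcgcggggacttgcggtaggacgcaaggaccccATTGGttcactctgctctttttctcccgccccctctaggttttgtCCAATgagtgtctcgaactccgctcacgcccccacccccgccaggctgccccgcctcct
Lpcat3: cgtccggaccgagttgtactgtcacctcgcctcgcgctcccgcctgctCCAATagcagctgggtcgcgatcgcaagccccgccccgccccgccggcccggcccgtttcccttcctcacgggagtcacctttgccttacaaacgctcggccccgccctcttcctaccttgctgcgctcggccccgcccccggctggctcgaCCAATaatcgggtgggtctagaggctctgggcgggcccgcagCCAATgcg

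CCAAT was found 2 times before Chka, 2 times before Cds2 (1 of them on the opposite strand) and 3 times before Lpcat3. It is common, since 33.8% of 32851 mouse promoters of this length held it. TCACCCCAC lay 116 to 108 bases before the first Pcyt1a start, on the gene's strand, and 0.496% of all promoters held it. The window of Etnk1 held none of these letters. The table held promoters for 8 of the 10 genes, 12 starts in all. CACGTG (6.02% of all promoters), TTATGTAA (0.819%), GTAAACA (3.17%) and the DR4 repeat (0.0152%) were in none of the 12. All 5 printed windows were richer in CpG than the median promoter, which had 6 CpG and 52.4% G or C, from 17 CpG and 62.4% for Cds2 to 31 and 74.8% for Etnk1. A match is a description of letters and not a measured binding site.

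**Figure D1:**
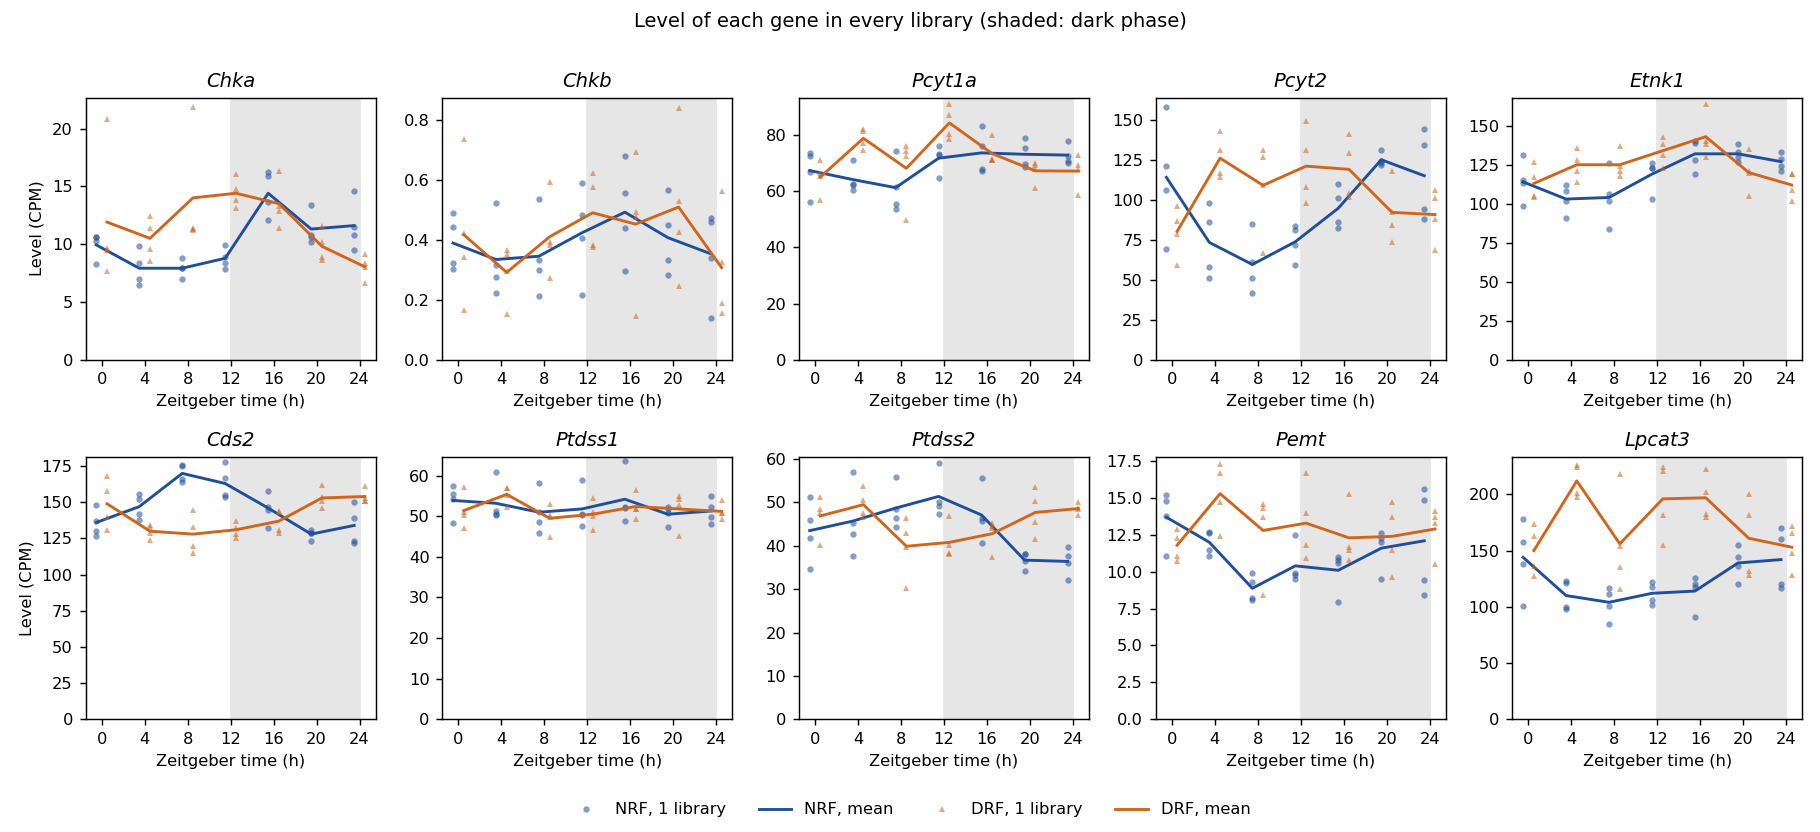
Level in CPM (vertical axis, from 0) against zeitgeber time in h for each of the 10 genes. Points are libraries, lines join the means of 4 libraries, and the shading marks the dark phase. Lpcat3 lay higher under DRF at ZT4, ZT12 and ZT16 with no overlap, Cds2 ran in opposite directions under the regimens, and Ptdss1 stayed between 44.8 and 63.6 CPM.

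Chka, the kinase that commits choline to the Kennedy pathway (ENSMUSG00000024843, chr19:3851773-3894369), rose in fed VAT under NRF. No such rise was detected under DRF, where the windows compared leave out ZT12, the hour of its highest DRF group. Group means of Chka spanned 1.74-fold under NRF and 1.71-fold under DRF. Under NRF its 4 libraries at ZT16, 4 h into the night, held 15.9, 16.2, 13.6 and 12.1 CPM, and those at ZT20 held 13.4, 10.2, 10.8 and 10.6. In the fasted day they held 9.86, 6.45, 6.94 and 8.38 at ZT4, and 8.81, 7.91, 7.95 and 6.97 at ZT8. All 8 fed libraries lay above all 8 fasted ones. The fed minus fasted difference was 0.63 ± 0.13 (SE, 1.55-fold, adjusted p = 0.00017). Under DRF the fed libraries held 11.4, 8.57, 9.54 and 12.4 CPM at ZT4 and 21.9, 11.4, 11.2 and 11.3 at ZT8. The fasted DRF libraries held 16.3, 12.9, 13.3 and 11.4 at ZT16 and 11.6, 8.63, 8.85 and 10.2 at ZT20. Here the fed libraries (8.57 to 21.9) and the fasted ones (8.63 to 16.3) overlapped, with medians of 11.4 and 11.5, and the difference was 0.04 ± 0.13 (adjusted p = 0.882). The difference between the regimens was itself called, with the fed minus fasted value lower under DRF by 0.59 ± 0.18 (adjusted p = 0.0246). Since the windows are opposed, this contrast is also light minus dark, summed over the regimens. A changed response to feeding and an effect of clock time cannot be told apart by it. The highest Chka values of all libraries, 21.9 and 20.8 CPM, came from the pair of DRF libraries with epithelial genes. Without both of these the regimen difference was -0.70 ± 0.13 (adjusted p = 0.000129), and the fed minus fasted value under DRF was -0.07 ± 0.09 (adjusted p = 0.675). Without replicate number 2 or 3 the regimen difference was not called (adjusted p up to 0.248).

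The fitted Chka peak moved by less than the 12 h that separate the feeding schedules. A 24-h cosine peaked at 18.5 ± 0.721 h under NRF and at 11.7 ± 0.971 h under DRF, which is 6.8 ± 1.21 h earlier. The amplitudes were 0.37 ± 0.08 and 0.31 ± 0.07. A test that moved the DRF curve by 12 h, so that hours since feeding matched, still found the regimens different (adjusted p = 0.00875, and up to 0.172 without replicate number 2 or 3). At single time points, DRF minus NRF was called at ZT8 (0.70 ± 0.18, adjusted p = 0.00499) and at ZT12 (0.66 ± 0.18, adjusted p = 0.00779). At ZT12 the NRF libraries held 9.9, 7.88, 8.91 and 8.39 CPM against 13.1, 13.8, 16.1 and 14.8 under DRF, with no overlap. Leaving out DRF replicate 1 at ZT8 alone lowered the ZT8 difference to 0.47 ± 0.18 (adjusted p = 0.0556). The mean level, the middle line of the fitted cosine, was 0.21 ± 0.07 higher under DRF (1.16-fold, adjusted p = 0.0297). Without the pair it was 0.15 ± 0.05 higher (adjusted p = 0.0372). This call was lost without any 1 replicate number (adjusted p up to 0.1).

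Chkb, the other choline kinase (ENSMUSG00000022617, chr15:89426360-89429908, minus strand), was close to the limit of what these libraries can measure. It had 5 to 32 reads per library, with medians of 0.372 CPM under NRF and 0.382 CPM under DRF. With all libraries in, none of the limma or rhythm tests made on it gave a call. The unadjusted p in limma was under 0.05 for 2 of them, the regimen difference of fed minus fasted (0.0486) and the curve at equal feeding time (0.0357), and voom called 0 of 13. Without DRF replicate 4 at ZT16 the curve at equal feeding time was called (adjusted p = 0.0425). The 95% interval of its mean difference ran from -0.07 to 0.10, which on this scale is a narrow range because the gene is so low. Of its 3061 exon bases, 1552 are shared with the exons of Gm44502, a read-through gene on the same strand that was not analysed here. Reads over those bases may be counted for either gene or for neither, so the level of Chkb is uncertain.

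Pcyt1a encodes the enzyme that makes CDP-choline from phosphocholine and CTP, the regulated step of phosphatidylcholine synthesis (ENSMUSG00000005615, chr16:32430921-32475070). It changed in the same direction as Chka but by less. Under NRF, fed libraries ran from 67.3 to 83.3 CPM (median 72.5) and fasted ones from 53.7 to 74.4 (median 61.9). The ranges overlapped, and the difference was 0.23 ± 0.07 (1.17-fold, adjusted p = 0.0124). It was not called on the deposited values (adjusted p = 0.0589) or without replicate number 2 (0.147). Under DRF, fed libraries ran from 49.7 to 82.1 CPM (median 75.4) and fasted ones from 61.3 to 80 (median 70.5), with a difference of 0.05 ± 0.07 (adjusted p = 0.691). The lowest value, 49.7 CPM, was DRF replicate 1 at ZT8, the library with the fewest adipocyte transcripts. The change in this response between the regimens did not pass the threshold (-0.18 ± 0.10, adjusted p = 0.268). At ZT4 the libraries held 62.4, 71.1, 60.6 and 62.5 CPM under NRF and 77.1, 74.8, 81.5 and 82.1 under DRF. These groups did not overlap, and the difference was 0.30 ± 0.10 (adjusted p = 0.0271). At equal clock time the Pcyt1a rhythm differed between the regimens (adjusted p = 0.0221), with fitted peaks at 18.1 ± 1.13 h and 10.9 ± 1.5 h. That call was lost without NRF replicate 2 at ZT8 (adjusted p = 0.0546), on the deposited values (0.114) and without ZT24 (0.0685). It was also lost without replicate number 2, 3 or 4 (up to 0.202).

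On the ethanolamine side, Etnk1, the ethanolamine kinase (ENSMUSG00000030275, chr6:143167221-143232307), followed Chka. Under NRF its fed libraries ran from 119 to 140 CPM (median 131) and its fasted ones from 83.5 to 126 (median 104). Just 1 fasted library, 126 CPM at ZT8, reached into the fed range. The difference was 0.35 ± 0.07 (1.27-fold, adjusted p = 6.04e-05). Under DRF the fed libraries ran from 114 to 137 CPM (median 123) and the fasted ones from 105 to 164 (median 133), a difference of -0.07 ± 0.07 (adjusted p = 0.564). The fed minus fasted value was lower by 0.42 ± 0.09 under DRF, the smallest p of the 10 genes in that comparison (adjusted p = 0.00169, and 0.0655 without replicate number 2). The highest DRF group was ZT16, with 140, 130, 164 and 138 CPM in the first hours without food. The fitted peak came at 18.2 ± 0.633 h under NRF and 13.1 ± 1.03 h under DRF, a shift of 5.2 ± 1.21 h to an earlier hour. After a 12-h shift of the DRF curve the regimens still differed (adjusted p = 0.000806). At ZT4 the NRF libraries held 112, 108, 90.7 and 102 CPM and the DRF libraries 121, 114, 128 and 136, which did not overlap (0.27 ± 0.09, adjusted p = 0.031).

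Pcyt2, which makes CDP-ethanolamine in the same branch (ENSMUSG00000025137, chr11:120610087-120617936, minus strand), had the widest daily swing of the 10 under NRF. Under DRF its group means spanned 1.59-fold and those of Chka 1.71-fold. Under NRF Pcyt2 rose from 60.9, 41.5, 84.6 and 51 CPM at ZT8 to 131, 123, 124 and 122 CPM at ZT20. The ZT20 libraries all lay above the ZT8 libraries, and the group means differed 2.15-fold. Its fed minus fasted difference under NRF was 0.75 ± 0.15 (1.69-fold, adjusted p = 0.000196), with 82.3 to 131 CPM fed and 41.5 to 97.9 fasted. Under DRF the fed libraries ran from 66.6 to 143 CPM (median 122) and the fasted ones from 73.4 to 141 (median 103), a difference of 0.15 ± 0.15 (adjusted p = 0.581). The change between regimens was as large as that of Chka but less precise (-0.60 ± 0.22, adjusted p = 0.063). It was called when any 1 of 7 libraries was left out (adjusted p down to 0.0234), and without the pair with epithelial genes it was -0.49 ± 0.21 (adjusted p = 0.103). The amplitude was 0.55 ± 0.09 under NRF and 0.24 ± 0.08 under DRF. The fitted peak moved from 20.5 ± 0.597 h to 10.5 ± 1.46 h, by 9.9 ± 1.58 h. With all libraries in, neither the limma cosine fit (adjusted p = 0.0622) nor the MetaCycle-type rhythm test (0.293) called its DRF rhythm.

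Pcyt2 was higher under DRF from ZT4 to ZT12. At ZT4 the NRF libraries held 86.1, 97.9, 51.2 and 58.1 CPM and the DRF libraries 114, 117, 143 and 131, with no overlap (0.82 ± 0.22, 1.77-fold, adjusted p = 0.00544). It was also called higher under DRF at ZT8 (0.86 ± 0.22, adjusted p = 0.00429) and ZT12 (0.71 ± 0.22, adjusted p = 0.02). At the other hours no difference was called, with 0.32 ± 0.22 at ZT16, -0.46 ± 0.22 at ZT20 (adjusted p = 0.184), -0.33 ± 0.22 at ZT24 and -0.46 ± 0.22 at ZT0. Its mean level was 1.22-fold higher under DRF (0.29 ± 0.08, adjusted p = 0.00989, and 0.0547 without replicate number 1).

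**Figure D2:**
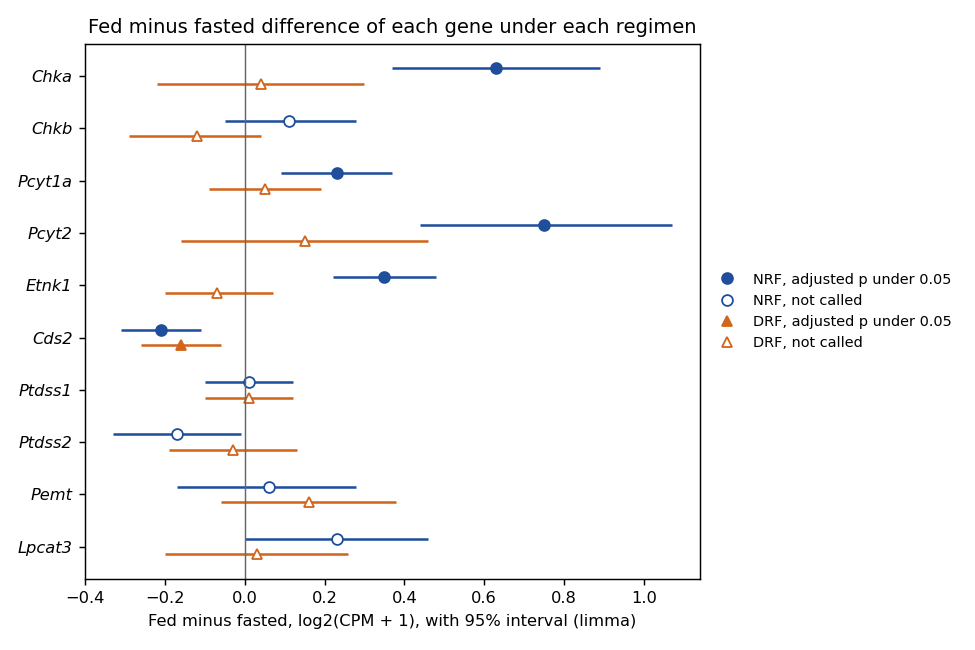
Fed minus fasted difference in log2(CPM + 1) for the 10 genes, with 95% intervals from limma. Fed is ZT16 and ZT20 under NRF and ZT4 and ZT8 under DRF, fasted the reverse, with 8 libraries each, and filled symbols are called. Chka, Pcyt1a, Pcyt2 and Etnk1 lie to the right of 0 under NRF with DRF intervals that include 0, and Cds2 lies to the left under both.

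Cds2, a CDP-diacylglycerol synthase (ENSMUSG00000058793, chr2:132263148-132312050), was lower in fed than in fasted VAT under both regimens. Under NRF the libraries held 175, 176, 164 and 166 CPM at ZT8 and 129, 129, 131 and 123 at ZT20. Under DRF they held 115, 145, 120 and 133 CPM at ZT8 and 154, 146, 151 and 162 at ZT20. The ZT8 and ZT20 libraries did not overlap under either regimen, and their order was reversed. Fed minus fasted was -0.21 ± 0.05 under NRF (adjusted p = 0.0012) and -0.16 ± 0.05 under DRF (adjusted p = 0.0149). The difference between these was 0.05 (95% interval from -0.10 to 0.19), and the fold sizes were 1.16 and 1.12. On the deposited values neither fed minus fasted contrast was called (adjusted p = 0.103 and 0.0928), and the DRF call was also lost without replicate number 1 or 3 (up to 0.161). The fitted peak moved from 9.4 ± 0.506 h to 21.3 ± 0.677 h, a shift of 11.8 ± 0.845 h. At equal clock time the regimens differed (adjusted p = 3.4e-10), the smallest p of the 10 genes in any test. With hours since feeding matched, no difference was detected (adjusted p = 0.596). Its mean level was 0.09 ± 0.03 lower under DRF (adjusted p = 0.00703), a change of 1.07-fold, and was not called on the deposited values (adjusted p = 0.125) or without replicate number 1 (0.0928).

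The serine exchange enzymes parted from each other. Ptdss1, which makes phosphatidylserine from phosphatidylcholine (ENSMUSG00000021518, chr13:66932830-66998401), was the flattest of the 10. Its 14 group means spanned 1.12-fold, with libraries of 45.8 to 63.6 CPM under NRF and 44.8 to 57.3 under DRF. Those of Chkb spanned 1.16-fold on this scale, which understates changes of so low a gene. In CPM the Chkb group mean was 0.291 at ZT4 and 0.509 at ZT20 under DRF. The 95% interval of the Ptdss1 mean difference, from -0.08 to 0.04, and those of fed minus fasted, from -0.10 to 0.12 under both regimens, leave room only for small changes. Exons of Mterf3 on the opposite strand, with 714 to 1176 reads, cover 5.33% of the Ptdss1 exon bases. Reads there cannot be told apart, as the kit does not mark strand. Ptdss2, which uses phosphatidylethanolamine (ENSMUSG00000025495, chr7:141122382-141157606), did vary with the hour. Under NRF it held 59, 50, 49.3 and 47.4 CPM at ZT12 and 34.3, 36.6, 38.1 and 38 at ZT20. Under DRF it held 38.4, 40.1, 38 and 46.8 CPM at ZT12 and 41.6, 53.5, 45.4 and 50.3 at ZT20. The groups of the regimens did not overlap at either hour, with DRF lower at ZT12 (-0.33 ± 0.11, adjusted p = 0.0393) and higher at ZT20 (0.36 ± 0.11, adjusted p = 0.0234). At ZT24 it held 36.1, 39.7, 37.7 and 32 CPM under NRF and 48.4, 47.1, 48.8 and 50.1 under DRF, again apart (0.41 ± 0.11, adjusted p = 0.0112). Each of these time point calls was lost on the deposited values and without replicate number 2, and that at ZT12 also without the ZT24 libraries. Over the settings other than 1 library left out, adjusted p reached 0.28 at ZT12, 0.252 at ZT20 and 0.133 at ZT24. The peak lay at 10.2 ± 0.834 h under NRF and 23.6 ± 1.28 h under DRF. As for Cds2, the curves differed at equal clock time (adjusted p = 1.51e-05), and no difference was detected at equal feeding time (adjusted p = 0.555). The mean level differed by -0.01 ± 0.04 (adjusted p = 0.921).

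Pemt (ENSMUSG00000000301, chr11:59970614-60046489, minus strand), a methyltransferase best known from liver, had a higher mean level under DRF. Its 28 NRF libraries ran from 7.96 to 15.6 CPM (median 11.1) and its 28 DRF libraries from 8.44 to 17.3 (median 13.1). The ranges overlapped widely, and the mean difference was 0.22 ± 0.06 (1.17-fold, adjusted p = 0.00607). The highest NRF value came from replicate 4 at ZT24, which also held 1539 CPM of 4 measured liver genes, against medians of 24.5 and 35.8 CPM under NRF and DRF. Without that library the difference was 0.23 ± 0.06 (adjusted p = 0.00403), and without replicate number 4 as a whole it was not called (adjusted p = 0.0691). Pemt was called at ZT8 alone, where NRF held 8.25, 8.08, 9.9 and 9.31 CPM and DRF 8.44, 13.7, 14.6 and 14.3 (0.45 ± 0.16, adjusted p = 0.0394). The lowest of those DRF values again came from the library with epithelial genes. Neither fed minus fasted contrast was called, at 0.06 ± 0.11 under NRF and 0.16 ± 0.11 under DRF.

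Lpcat3, the acyltransferase that enriches membranes in arachidonoyl and linoleoyl chains (ENSMUSG00000004270, chr6:124663027-124704418), showed the largest change in mean level. NRF libraries ran from 85.1 to 178 CPM (median 120) and DRF libraries from 116 to 226 (median 177). The mean was 0.54 ± 0.07 higher under DRF (1.45-fold, 95% interval from 1.32 to 1.6, adjusted p = 4.04e-08). At ZT4 the NRF libraries held 121, 123, 98 and 99.9 CPM and the DRF libraries 201, 198, 224 and 226. At ZT12 they held 102, 106, 118 and 122 under NRF and 224, 155, 182 and 221 under DRF. At ZT16 they held 91.3, 118, 126 and 120 under NRF and 202, 180, 183 and 223 under DRF. At each of these 3 hours all DRF libraries lay above all NRF libraries, with differences of 0.94, 0.79 and 0.79 (SE 0.16 each) and adjusted p of 3.76e-05, 0.000436 and 0.000847. At ZT8 the groups touched, with 85.1 to 117 CPM against 116 to 218 (0.56 ± 0.16, adjusted p = 0.013, and up to 0.119 without DRF replicate 4 or NRF replicate 2 of that hour). At ZT0, ZT20 and ZT24 they overlapped, for example 101, 138, 178 and 158 CPM under NRF and 174, 136, 163 and 127 under DRF at ZT0. Lpcat3 was thus called at 4 of the 7 time points, in fed (ZT4, ZT8) and in fasted (ZT16) DRF tissue. Of its exon bases, 10.2% lie under exons of Emg1 on the opposite strand, which had 1063 to 2133 reads, and the library kit does not mark strand, so reads over those bases cannot be told apart. Fed minus fasted was 0.23 ± 0.12 under NRF (adjusted p = 0.155) and 0.03 ± 0.12 under DRF (adjusted p = 0.918).

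**Figure D3:**
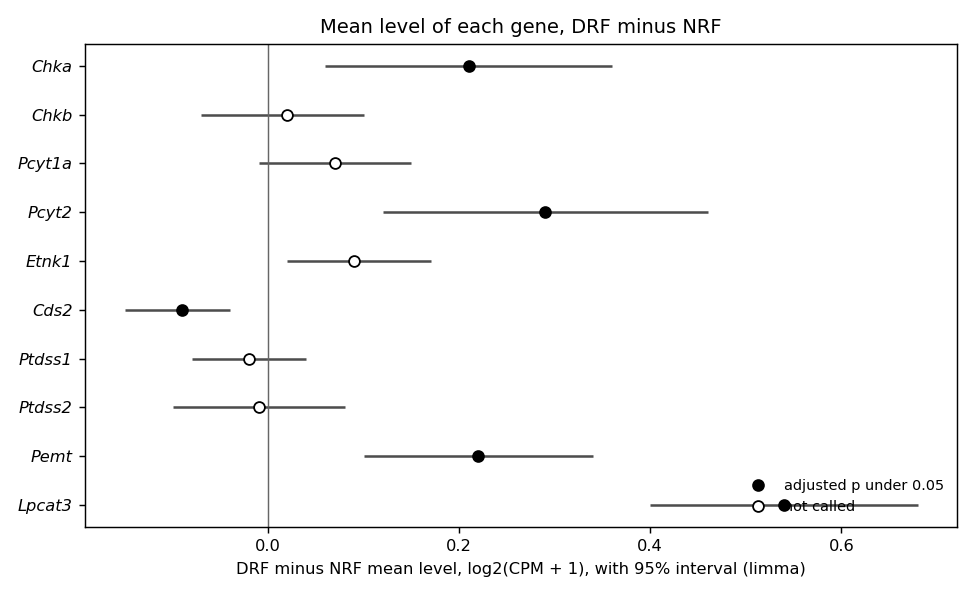
DRF minus NRF difference of the mean level (middle line of the fitted 24-h cosine) in log2(CPM + 1), with 95% intervals from limma on 28 libraries per regimen. Filled symbols are called. Lpcat3 stands furthest from 0 at 0.54, Chka, Pcyt2 and Pemt lie between 0.21 and 0.29, and Cds2 is below 0 at -0.09.

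Of the 10 genes, 5 were called for mean level, against 21.7% of all genes tested. Chka, Pcyt2, Pemt and Lpcat3 were higher under DRF and Cds2 was lower. The median difference of all 10 was 0.08, and that of all genes was near 0. The fed minus fasted contrast called 5 under NRF (23% of all genes), where Chka, Pcyt1a, Pcyt2 and Etnk1 rose and Cds2 fell, with a median of 0.17 against -0.01 for all genes. Under DRF it called 1, Cds2 (18.2% of all genes), with a median of 0.02. The regimen difference of fed minus fasted was called for Chka and Etnk1, 2 of 10 (12.2% of all genes), both lower under DRF. Here and in the lists below it is also light minus dark, summed over the regimens. It cannot tell a changed response to feeding from an effect of clock time. These comparisons use the same libraries and are not independent of each other. Without the pair of DRF libraries the mean level was called for 7 genes, Pcyt1a (0.11 ± 0.03, adjusted p = 0.0114) and Etnk1 (0.10 ± 0.04, adjusted p = 0.0412) being added, and each fed minus fasted count was as before. With all libraries Etnk1 lay near the threshold (adjusted p = 0.052). Its mean level was also called when any 1 of 18 libraries was left out, under a minimum of 1 CPM and without ZT24.

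By time of day, 20 of 70 gene and time point pairs were called, against 13.9% of such pairs over all genes. At ZT0 limma called 0 of the 10 (10.5% of all genes), with 1 at an unadjusted p under 0.05 and 0 called by voom on the recovered reads. At ZT4 4 were called (19.5%), all higher under DRF, and at ZT8 6 (16.5%), of which Cds2 was lower. At ZT12 5 were called (16.1%), with Cds2 and Ptdss2 lower. Lpcat3 was the single call at ZT16 (9.97%). At ZT20 and ZT24 Cds2 and Ptdss2 were called, both higher under DRF (13.1% and 11.3% of all genes). Of the 20 calls, 9 held whichever library was left out, namely Lpcat3 at ZT4, ZT12 and ZT16, Cds2 at ZT8, ZT12 and ZT20, Pcyt2 at ZT4 and ZT8, and Chka at ZT12. The other 11 lost their call without at least 1 library of their own hour. Their adjusted p then rose to at most 0.0826 and 0.147 for Pcyt1a and Etnk1 at ZT4. It rose to 0.0556, 0.25, 0.129 and 0.119 for Chka, Etnk1, Pemt and Lpcat3 at ZT8, and to 0.0903 and 0.173 for Pcyt2 and Ptdss2 at ZT12. At ZT20 it rose to 0.102 for Ptdss2, and at ZT24 to 0.0599 for Ptdss2 (without NRF replicate 4) and 0.176 for Cds2, whose call ended when any 1 of 22 libraries was left out. Among the 9 that held, Cds2 at ZT12 (adjusted p = 0.0641) and at ZT20 was not called on the deposited values. Leaving out a replicate number ended the calls of Pcyt2 at ZT4 (number 3 or 4) and ZT8 (2 or 4), Chka at ZT12 (2 or 3) and Cds2 at ZT20 (4).

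**Figure D4:**
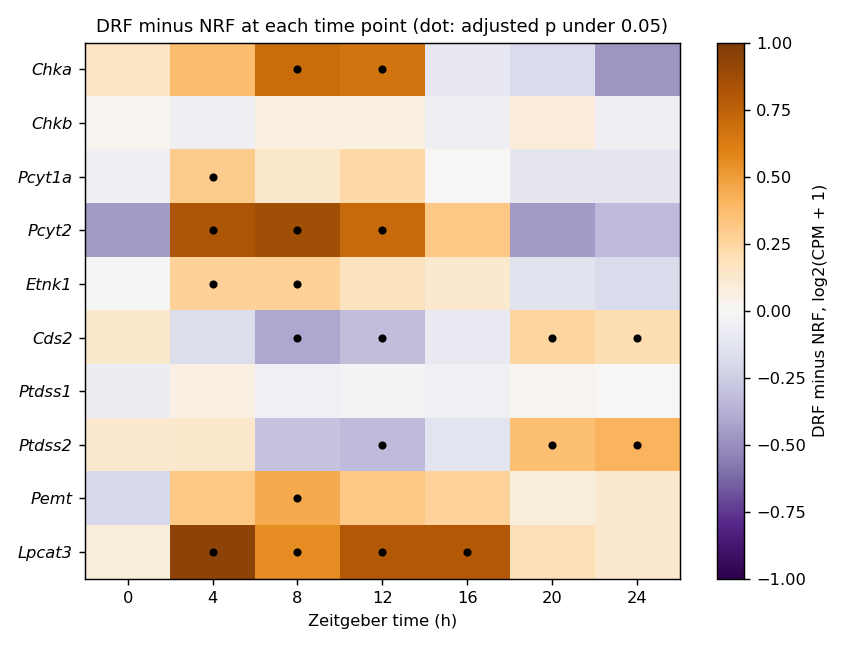
DRF minus NRF in log2(CPM + 1) for the 10 genes (rows) at each zeitgeber time in h (columns), with colour for the difference and a dot where limma gave an adjusted p under 0.05. Values of Lpcat3, Pcyt2 and Chka are positive from ZT4 to ZT12 and reach 0.94, and Cds2 and Ptdss2 pass from below 0 at ZT8 and ZT12 to above 0 at ZT20 and ZT24.

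A 24-h rhythm was called under NRF for 5 of the 10 by the MetaCycle-type test on the deposited values (24.2% of all genes), namely Cds2 (adjusted p = 4.36e-05), Chka (0.000103), Pcyt2 (0.00109), Etnk1 (0.00644) and Ptdss2 (0.00958). The Ptdss2 call was lost without ZT24 (adjusted p = 0.0768), where Pemt was called instead (0.0256), and without any 1 replicate number (up to 0.224). Those of Pcyt2 and Etnk1 were lost without replicate number 2 or 4 (up to 0.1 and 0.472). Under DRF it was called for 3 (12.9% of all genes), namely Chka (0.00364), Etnk1 (0.042) and Pcyt1a (0.045). Pcyt2 (0.293) was called as well without the pair with epithelial genes (0.0492) and without DRF replicate 1 at ZT8 alone (0.0254). The Chka call was lost without ZT24 (adjusted p = 0.151) and without replicate number 1, 2 or 3 (up to 0.357). The calls of Etnk1 and Pcyt1a lay near the threshold, and leaving out 1 library ended them for 20 and 17 of the 28 DRF libraries, among them every library of ZT0 and ZT24, with adjusted p up to 0.145 and 0.124. In the cosine fits of limma, 8 genes were called under NRF (33.7% of all genes) and 4 under DRF (26.7%). Cds2 and Ptdss2 are among those 4 (adjusted p = 9.16e-05 and 0.0243) although the MetaCycle-type test gave 0.674 and 0.969. The scale of the values differed too, and on log2(CPM + 1) the MetaCycle-type test called Cds2 (adjusted p = 0.00747) and not Ptdss2 (0.0988).

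The rhythm differed between the regimens at equal clock time for 7 genes (36% of all genes tested) and at equal feeding time for 2, Chka and Etnk1 (14.9%). Cds2, Ptdss2, Pcyt2 and Lpcat3 had shifts of 11.8 ± 0.845, 10.6 ± 1.53, 9.9 ± 1.58 and 10.1 ± 2.63 h, and of these none was called at equal feeding time. The DRF peaks of Pcyt2 and Lpcat3 come from fits that neither test called (limma adjusted p = 0.0622 and 0.343), so their shifts are uncertain. Chka, Etnk1 and Pcyt1a had shifts of 6.8 ± 1.21, 5.2 ± 1.21 and 7.2 ± 1.88 h. That of Pcyt1a is uncertain too. Its NRF rhythm was not called by the MetaCycle-type test (adjusted p = 0.408), nor its DRF fit by limma (0.0747). For the other 8 genes no difference at equal feeding time was called, which does not show that their curves moved by the full 12 h. Pcyt2 was called there without NRF replicate 3 at ZT8 (adjusted p = 0.0469) and Chkb without DRF replicate 4 at ZT16 (adjusted p = 0.0425). Without ZT24, 5 genes were called at equal clock time, and Lpcat3 (adjusted p = 0.0565) and Pcyt1a (0.0685) lost their call.

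**Figure D5:**
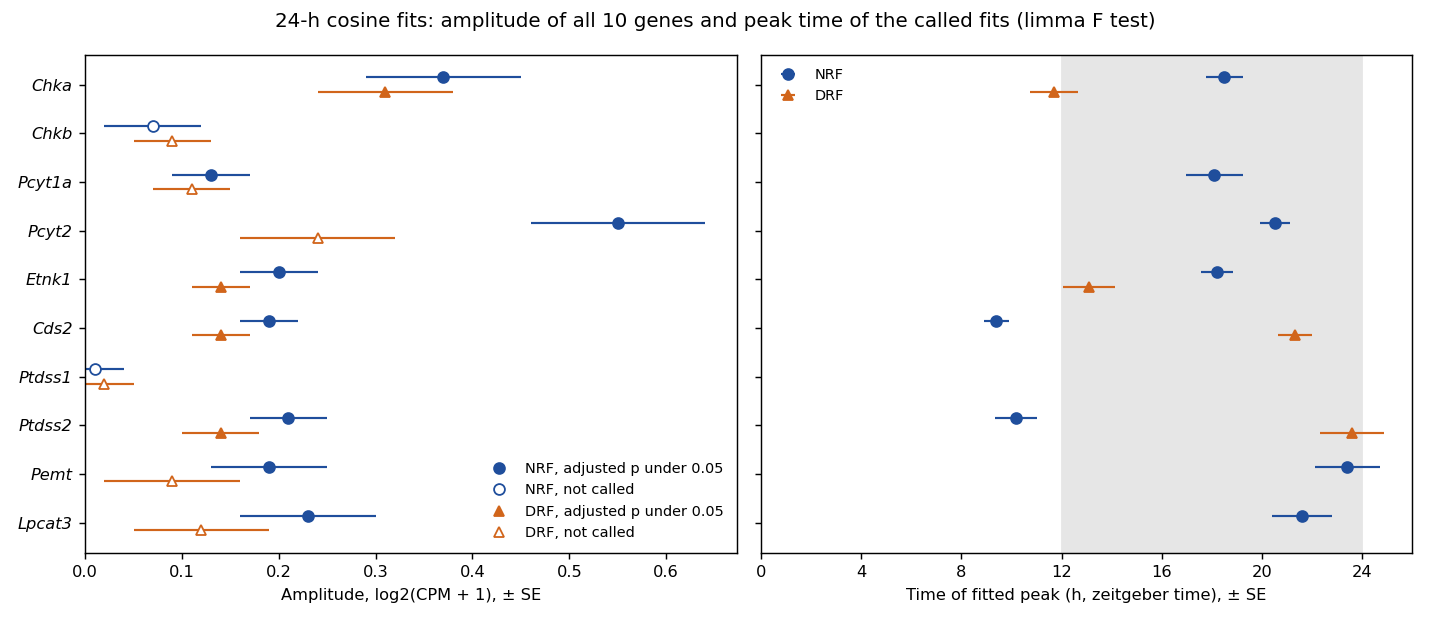
Amplitude in log2(CPM + 1) of the 24-h cosine for all 10 genes (left) and time of the fitted peak in zeitgeber h for fits called by limma's F test (right), each with its SE. Cds2 and Ptdss2 peak near 10 h under NRF and after 21 h under DRF, and Chka and Etnk1 peak after 18 h under NRF and between 11.7 and 13.1 h under DRF.

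Across the 14 group means, Chka, Etnk1, Pcyt1a and Pcyt2 ran together and Cds2 ran opposite to them (from -0.902 with Pcyt2 to -0.599 with Pcyt1a). Chkb had 0.621 with Chka and 0.519 with Etnk1, but 0.286 with Pcyt1a, 0.156 with Pcyt2 and -0.066 with Cds2. The Pearson correlation was 0.849 between Chka and Etnk1, 0.664 between Chka and Pcyt2, 0.632 between Chka and Pcyt1a, 0.747 between Pcyt1a and Pcyt2, 0.8 between Pcyt2 and Etnk1, 0.783 between Pcyt1a and Etnk1 and 0.797 between Pemt and Lpcat3. It was 0.735 between Cds2 and Ptdss2. The points share regimens and time points, and the values are given as a description. Among 14302 genes of at least 1 CPM, those most like Pcyt2 were Acat2 (0.986), a sterol pathway thiolase, Psph (0.984), the last enzyme of serine synthesis, Pak1ip1 (0.984), Parm1 (0.981) and Kpna1 (0.979). Those most like Lpcat3 were Ncan (0.963), Podnl1 (0.963), Cs (0.959), the citrate synthase of mitochondria, Gatb (0.955) and Tlcd2 (0.954).

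Other genes around the pathway gave a wider view. Of 15 further enzymes of the Kennedy and CDP-diacylglycerol branches, 8 were called for mean level (21.7% of all genes), all higher under DRF. In fed tissue under NRF 6 of the 15 rose and 1 fell (23% of all genes called), and under DRF 3 rose and 1 fell (18.2%). The regimen difference of fed minus fasted was called for 4 of the 15 (12.2% of all genes), 3 lower and 1 higher under DRF, with a median of 0.00 over the list. Lpin1, the phosphatidate phosphatase that supplies diacylglycerol, rose by 1.25 ± 0.20 under NRF (adjusted p = 3.83e-06), with 0.34 ± 0.20 under DRF (adjusted p = 0.274), and the regimens differed (-0.92 ± 0.28, adjusted p = 0.025). Pgs1, which starts cardiolipin synthesis from CDP-diacylglycerol, rose by 0.61 ± 0.10 under NRF and had 0.16 ± 0.10 under DRF (difference -0.45 ± 0.14, adjusted p = 0.0235).

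Of 13 other lysophospholipid acyltransferases, 5 were called fed against fasted under NRF and 3 under DRF, against 23% and 18.2% of all genes. The regimen difference of fed minus fasted was called by limma for 0 of the 13 (2 at an unadjusted p under 0.05), against 12.2% of all genes, while mean level was called for 5 (21.7% of all genes), 3 of them higher under DRF. Lpcat1 rose by 0.36 ± 0.06 and 0.28 ± 0.06, and Lclat1 fell by 0.33 ± 0.05 and 0.28 ± 0.05, under NRF and DRF in turn. Of 10 transporters of choline and ethanolamine, 2 were called under NRF (23% of all genes) and 1 under DRF (18.2%), while mean level was called for 5 (21.7%), 3 higher and 2 lower under DRF. For the regimen difference of fed minus fasted, 1 of the 10 was called (12.2% of all genes), higher under DRF. Flvcr2 fell in fed tissue under NRF (-0.80 ± 0.16) and had 0.02 ± 0.16 under DRF. Flvcr1, a choline transporter, had 0.06 ± 0.08 under NRF and fell under DRF (-0.26 ± 0.08, adjusted p = 0.0169), and the difference between these did not pass (adjusted p = 0.0604). Of 18 genes of phospholipid breakdown, 4 were called under NRF, near the 23% of all genes, and 7 under DRF (18.2% of all genes), and 7 for mean level (21.7%), 4 of them higher. In this list 1 of the 18 was called for the regimen difference of fed minus fasted (12.2% of all genes), with a median of -0.01. Pla2g15, the lysosomal phospholipase A2, rose in fed tissue under DRF (1.12 ± 0.10, adjusted p = 8.68e-11) and had 0.14 ± 0.10 under NRF, and the regimens differed (0.98 ± 0.15, adjusted p = 7.02e-06). Lypla2 rose under DRF by 0.27 ± 0.05 and had 0.11 ± 0.05 under NRF, and the difference between these did not pass (adjusted p = 0.164). Of 10 measured genes of choline oxidation and methyl supply, 4 were called under NRF (23% of all genes) and 3 under DRF (18.2%), and 4 for mean level (21.7%), 2 in each direction. Here the regimen difference of fed minus fasted was called for 2 of the 10 (12.2% of all genes), both lower under DRF. Chdh, which oxidises choline to betaine aldehyde, fell in fed tissue under DRF (-0.99 ± 0.21, adjusted p = 0.00036) and had 0.13 ± 0.21 under NRF. Mtr, methionine synthase, fell under both (-0.38 ± 0.07 and -0.61 ± 0.07).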

How the data were processed

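RNA of VAT was sequenced in 56 libraries as poly(A) RNA with paired reads of 150 bases, from a kit that does not mark strand. Per the labels, the authors used HISAT2 2.0.5, featureCounts 1.5.0-p3 and the mm10 build, and the strand setting of the counting is not given in the sources used here. The table the authors deposited is called TPM, but its steps show a score of another kind: log2(CPM + 1) divided by exon length, with a scale of its own in each library. The first 30 steps gave the scale of each library. With exon lengths of GENCODE vM21 (GRCm38), 100% of 1261980 values of at most 10000 reads came within 0.02 of a whole read. Lengths of 884 genes came from the steps themselves, and 1 gene was unresolved and not tested. Effective library sizes were 31.8 to 47.3 M. The plan assumed linear TPM, and log2(CPM + 1) took its place.

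Regimens were compared with limma 3.58.1 in R 4.3.3 (intensity trend) over 25938 genes, by cosine curves of 24 h in each regimen and by 14 group means, with Benjamini-Hochberg adjustment. Mean level and rhythm differences came from the curves, and the fed minus fasted and time point contrasts from the group means. Rhythms were tested on the deposited values by a MetaCycle-type test (Fisher combination of JTK_CYCLE and Lomb-Scargle p), in Python 3.11.15. Fed windows were ZT16 and ZT20 under NRF and ZT4 and ZT8 under DRF. All 10 genes are named, with up to 2 genes per other list (smallest adjusted p fed against fasted) and the 5 genes most correlated with the 2 members of widest range. The members and lists were chosen with earlier results of these data known. Programs were tested on simulated data. Alternatives covered scaling, pseudocount (0.25), a minimum of 1 CPM, voom, the deposited values, a replicate block, ZT24, the pair of DRF libraries apart, and each library and replicate number left out.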

Additional observations from a re-analysis of the deposited data

Results flagged for a closer look

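Within 140 sets of 4 libraries (10 genes in 14 groups), 10 had a library far from the other 3 by Dixon's test, and chance gives about 5%. DRF replicate 1 at ZT8, which carried epithelial genes, was the high library for Chka (21.9 CPM) and the low one for Pcyt1a (49.7 CPM) and Pemt (8.44 CPM). The other low libraries were NRF replicate 2 at ZT0 for Chka (8.28 CPM), NRF replicate 1 at ZT12 for Etnk1 (103 CPM), DRF replicate 3 at ZT16 for Ptdss2 (37.4 CPM) and NRF replicate 1 at ZT16 for Pemt (7.96 CPM). The other high libraries were DRF replicate 4 at ZT16 for Pcyt1a (80 CPM), NRF replicate 3 at ZT4 for Ptdss1 (60.9 CPM) and NRF replicate 3 at ZT12 for Pemt (12.5 CPM).

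The limma tests of the difference between DRF and NRF were called as follows. The rhythm at equal clock time differed for Cds2 (adjusted p = 3.4e-10), Pcyt2 (2.59e-06), Ptdss2 (1.51e-05), Chka (0.000168), Etnk1 (0.00164), Lpcat3 (0.00895) and Pcyt1a (0.0221). At equal feeding time it differed for Etnk1 (adjusted p = 0.000806) and Chka (0.00875). The fed minus fasted difference changed between the regimens for Etnk1 (adjusted p = 0.00169) and Chka (0.0246).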

How the results depend on the processing

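Over 6200 comparisons of a single gene's test with an alternative, 5947 stayed on the same side of the threshold, 193 calls were lost, 60 were gained and 0 called values changed sign. With 1 replicate number left out, which removes 14 of 56 libraries, the genes called numbered 2 to 4 for mean level (main 5), 2 to 4 for a rhythm under NRF (main 5), 0 to 1 for a rhythm under DRF (main 3), 5 to 7 at equal clock time (main 7), 1 to 2 at equal feeding time (main 2), 4 to 5 and 0 to 1 for fed against fasted under NRF and DRF (main 5 and 1), 0 to 2 for the regimen difference of that (main 2), and 8 to 17 for gene and time point pairs (main 20). The Chka mean level lost its call without any 1 replicate number (adjusted p up to 0.1), those of Pcyt2 and Cds2 without number 1 and that of Pemt without number 4, while that of Lpcat3 held. With 1 library left out the counts were 5 to 7 for mean level, 5 to 7 and 1 to 4 for a rhythm under NRF and DRF, 6 to 8 at equal clock time, 2 to 3 at equal feeding time, 5 to 6 and 1 for fed against fasted under NRF and DRF, 2 to 3 for the regimen difference, and 17 to 22 for pairs. Without ZT24 a rhythm under DRF was called for 0 genes, and 5 genes were called at equal clock time, Lpcat3 and Pcyt1a losing their call. The causes were not tested. Except for the F test of the cosine, counts under alternatives are given without the share of all genes called in the same setting. They do not tell losses particular to these genes from losses over all genes. The F test of the cosine called 8 genes under NRF (33.7% of all genes). On the deposited values, fed against fasted was called for 3 genes under NRF and 0 under DRF, and 11 pairs were called. With time points of equal cosine tied, an alternative chosen after seeing the data, Pcyt1a under DRF had an adjusted p of 0.178. A minimum of 1 CPM left out Chkb, and with it Pcyt2 had an adjusted p of 0.0399 for the regimen difference of fed minus fasted. Deviations of same-numbered libraries had a median correlation of 0.0333, against -0.0102 for others. Of same-numbered pairs 37.6% were above 0.1, against 29.4% of others. The labels do not say whether replicate numbers pair the libraries, and these medians cannot settle it. With the replicate block, 6 genes were called for mean level (Etnk1 added, adjusted p = 0.0428) and 8 at equal clock time (Pemt added, 0.0493), and 22 pairs were called in place of 20. It changed no other call of the mean level, fed against fasted and rhythm difference tests. Depth limited Chkb alone, at 5 to 32 reads.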
